A study of Mus musculus with 2 samples.

Results

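The genes described here are 36 mouse genes of glucose uptake, glycolysis, lactate handling, the pyruvate dehydrogenase switch and the pentose phosphate pathway. They were chosen by gene symbol, not by their values, and all 36 were found among the 21829 gene symbols measured. RNA was sequenced from C2C12 cells, an immortalised mouse myoblast line grown in DMEM with 10% FBS and gentamicin, in 1 library of WT genotype and 1 library of GNE KO genotype. In the KO cells Gne, which encodes the enzyme that starts sialic acid synthesis, had been edited with Cas9 and a guide RNA, and single clones were isolated. No drug, differentiation or starvation condition is named for these libraries. With 1 library per line there was no replicate check, no p-value was computed, and an effect of Gne loss and a difference between a clone and its parent cells cannot be told apart.

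Glycolysis splits glucose into pyruvate through a chain of cytosolic enzymes and yields ATP and NADH. Pyruvate is then either reduced to lactate, which leaves through monocarboxylate transporters, or enters mitochondria, where pyruvate dehydrogenase converts it to acetyl-CoA unless pyruvate dehydrogenase kinases phosphorylate and silence it. The pentose phosphate pathway branches off after the hexokinase step: its oxidative arm makes NADPH, and its non-oxidative arm, run by transketolase and transaldolase, exchanges sugar phosphates with glycolysis. Proliferating myoblasts depend on glycolysis, and mature muscle uses tissue-enriched isoforms of several of these enzymes.

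The deposited values name no unit. They were treated as FPKM, that is, fragments scaled to transcript length and to library size, so levels can be compared between genes. Totals over all genes were 568543 FPKM in WT and 574253 FPKM in KO. From the steps between low values, 1 fragment in a 1 kb transcript was estimated at 0.0371 FPKM in WT and 0.0422 FPKM in KO, so that a fragment weighed 1.14 times as much in KO and a given FPKM rests on fewer fragments there. Gne itself was at 6.67 FPKM in WT and 7.34 FPKM in the library labelled KO, so its RNA level does not check the label. Of 7 myoblast markers, summed at 199 FPKM in WT and 25.8 FPKM in KO, Myod1 stood at 60.0 FPKM in WT and was listed at 0 in KO, and Pax7 was listed at 0 in both. Of the 5 tested, that is, averaging 1 FPKM or more, 4 were more than 2-fold lower in KO, beside 3.43% of all genes tested. Myf5 was more than 2-fold higher, beside 2.84%, with 9.14 FPKM in WT and 20.3 FPKM in KO. Cdh15 (16.6 and 0.701 FPKM), Chrna1 (15.3 and 0.917 FPKM) and Myod1 reached that average only through WT. For Myod1, at 0 in KO, passing 2-fold was fixed by this limit. Of 7 fibroblast or mesenchymal markers, the sum was 259 FPKM in WT and 942 FPKM in KO, most of it from the collagen genes Col1a1 (9.66 and 273 FPKM) and Col1a2 (237 and 621 FPKM). Postn was at 0.440 and 33.9 FPKM, while Pdgfra was at 10.8 and 12.3 FPKM and Lum and Thy1 were listed at 0 in both. Endothelial markers summed to 0.010 and 0.028 FPKM and leukocyte markers to 3.04 and 1.50 FPKM, with Ptprc listed at 0 in both. Differentiated myocyte markers summed to 3.82 and 5.29 FPKM, and the 5 proliferation markers to 655 and 676 FPKM. The part of these marker differences in the results below was not tested. In bulk RNA, fewer cells of a type and less RNA per cell cannot be told apart.

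The summed RNA level of the pathway was close between the libraries, and transketolase differed most among the genes that averaged 1 FPKM or more. The 36 genes summed to 8792 FPKM in WT and 8399 FPKM in KO, 1.55% and 1.46% of the total over the genes listed for each library. Fold changes are log2((KO + 1)/(WT + 1)) and were read only where the average of both libraries was 1 FPKM or more. This limit was reached by 31 of the 36 genes and by 10542 of all genes, called the genes tested. Adding 1 understates the change of genes with low values, and no gene has an error, since there were no replicates. Of the 31 genes, 1 (Tkt) was more than 2-fold higher in KO, a share of 3.23% beside 2.84% of all genes tested, and 0 were more than 2-fold lower, beside 3.43% of all genes. A further 13 genes were higher and 17 lower without passing 2-fold. The median log2 fold change was -0.09 against 0.01 for all genes tested, with the middle of the genes between -0.31 and 0.11 against -0.21 and 0.23 (25th to 75th percentile). A log2 fold change within 0.5 of 0 was found for 25 of the 31 genes, or 80.6%, and for 80.9% of all genes. These shares lie close to each other.

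**Figure D1:**
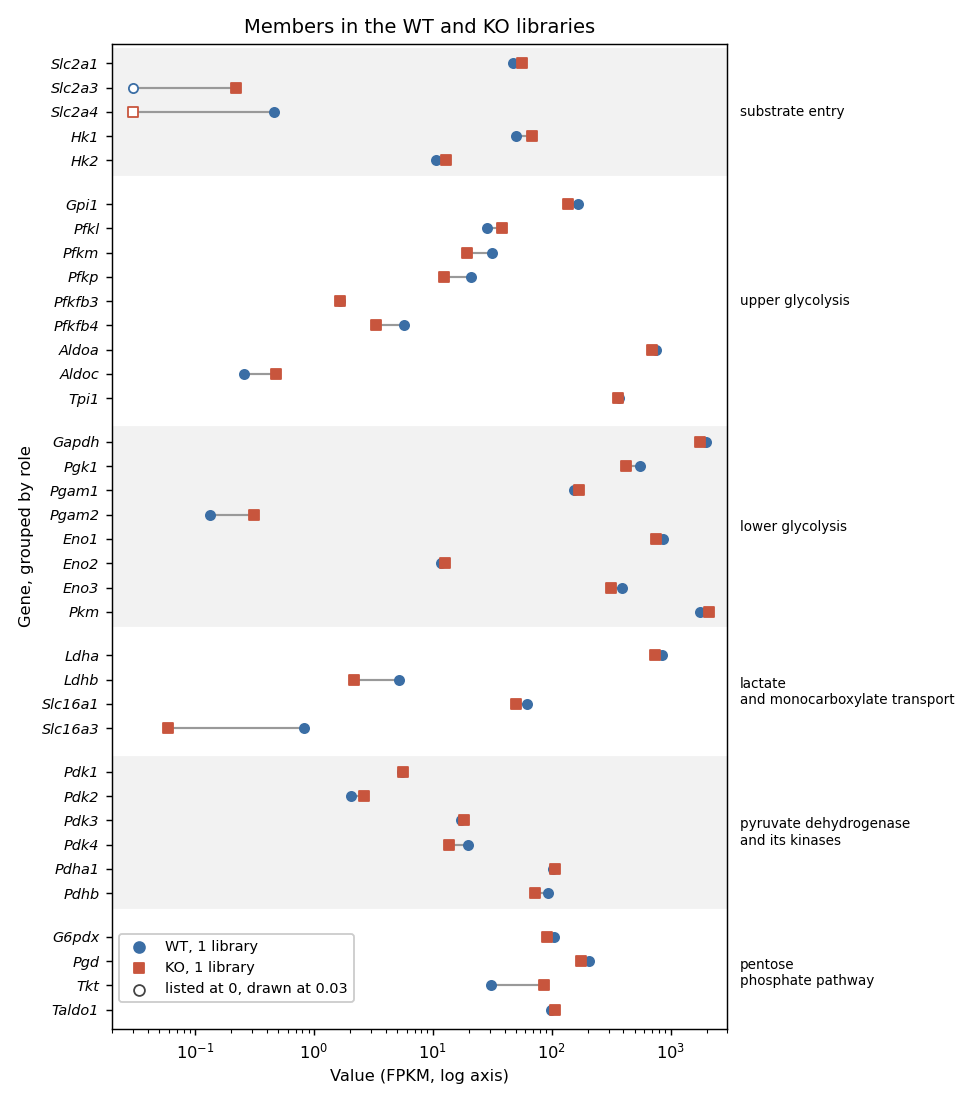
FPKM of each of the 36 genes in the WT and the KO library on a log axis, grouped by role, with 1 point per library and open symbols for genes listed at 0. Most pairs of points lie almost on top of each other, Tkt is the widest pair among the genes tested with 30.8 FPKM in WT and 86.1 FPKM in KO, and Slc16a3, at 0.829 and 0.059 FPKM, the widest among those above 0 in both libraries.

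Tkt, which encodes transketolase, was at 30.8 FPKM in WT and 86.1 FPKM in KO. The KO value was 2.80 times the WT value, a log2 fold change of 1.46, and it rested on an estimated 2700 and 6600 fragments. Among the genes tested, 96.8% had a smaller change in either direction, and Tkt took rank 143 among the rises. The gene (ENSMUSG00000021957) lies at chr14:30270156-30299612 on the plus strand of GRCm39. Its neighbours did not share the difference: the median log2 fold change of tested genes within 5 Mb on either side was -0.03, and Tkt stood 1.49 above it.

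The other 3 pentose phosphate genes stayed close to their WT values. G6pdx, the X-linked glucose-6-phosphate dehydrogenase that opens the oxidative arm, was at 104 FPKM in WT and 90.5 FPKM in KO. Pgd, the phosphogluconate dehydrogenase that follows it, was at 204 and 175 FPKM. Taldo1, the transaldolase that works beside transketolase in the non-oxidative arm, was at 99.3 and 105 FPKM. Their log2 fold changes were -0.20 for G6pdx, -0.21 for Pgd and 0.09 for Taldo1, so among these 4 genes only Tkt passed 2-fold. The ratio of Tkt to Taldo1 was 0.310 in WT and 0.817 in KO, that of Tkt to G6pdx 0.297 and 0.952, and that of Tkt to Pgd 0.151 and 0.491. Tkt was therefore the lowest of the 4 genes in both libraries, but near G6pdx in KO.

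Of 8 further pentose phosphate genes, 6 were tested and 0 passed 2-fold, beside 2.84% of all genes tested that were higher and 3.43% that were lower. Their median log2 fold change was 0.16, and 5 were higher and 1 lower in KO. H6pd, the enzyme of the endoplasmic reticulum that runs the oxidative steps there, had the highest log2 fold change of the list, 0.55, with 14.4 FPKM in WT and 21.6 FPKM in KO. Rpe, the ribulose-phosphate epimerase, was at 19.1 and 26.1 FPKM and Rpia, the ribose-phosphate isomerase, at 12.5 and 12.1 FPKM. The transketolase-like genes Tktl1 and Tktl2 were listed at 0 in both libraries, so of these 3 genes only Tkt had a value above 0.

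The 250 bases before the RefSeq start of Tkt and of Taldo1 are shown because these partner genes behaved unlike each other. Tkt was higher in KO and Taldo1 was close to its WT value. Both hold the core of a hypoxia response element, ACGTG or GCGTG on either strand, which is set in capitals. The sequences are RefSeq windows from a GRCm38.p6 table, written in the direction of the gene, and each matched GRCm39 exactly at 1 place, on the plus strand: chr14:30270838-30271087 for Tkt and chr7:140971823-140972072 for Taldo1.
Tkt: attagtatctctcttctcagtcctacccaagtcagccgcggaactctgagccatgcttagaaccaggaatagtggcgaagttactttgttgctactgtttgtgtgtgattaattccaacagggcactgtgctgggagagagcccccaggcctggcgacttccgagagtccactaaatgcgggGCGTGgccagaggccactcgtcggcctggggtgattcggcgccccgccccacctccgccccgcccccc
Taldo1: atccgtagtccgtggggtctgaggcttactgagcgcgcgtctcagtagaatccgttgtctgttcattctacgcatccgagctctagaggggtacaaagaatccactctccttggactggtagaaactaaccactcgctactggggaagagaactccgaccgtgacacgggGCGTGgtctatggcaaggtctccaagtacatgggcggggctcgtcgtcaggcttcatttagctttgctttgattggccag
The Tkt window lies inside the gene position given above, past its first base at chr14:30270156. It thus precedes the RefSeq start used, not the start of that position. It overlaps exons of Tkt transcripts by 6 to 129 bases and an exon of the antisense gene Gm63403 by 147 bases. The Taldo1 window overlaps Taldo1 exons by 1 to 20 bases. Whether the deposited values use strand is not stated, so reads of Gm63403 and Tkt may not be told apart there.

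Each of the 2 windows holds 1 hypoxia core. The GC box GGGCGG, on either strand, occurs 3 times for Tkt and 1 time for Taldo1, and the G and C content is 59.6% and 54.4%. Neither window holds the E-box CACGTG, which contains ACGTG, or the antioxidant response core TGACNNNGC. Windows were found for 34 of the 36 genes, some with several starts, 49 windows in all. The hypoxia core was in 38 of the 49, or 77.6%, beside 38.6% of 32851 windows of all genes. It was in at least 1 window of 30 of the 34 genes. For this count no share over all genes was computed, and several windows give a gene more chances of a match. The windows of all genes were not matched for G and C content. The GC box was in 51.0% beside 32.7%, the E-box in 10.2% beside 6.02%, and the antioxidant core in 8.16% beside 10.2%. A match is a description of letters, and since most of these genes carry the hypoxia core, its presence does not set Tkt apart from them.

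**Figure D2:**
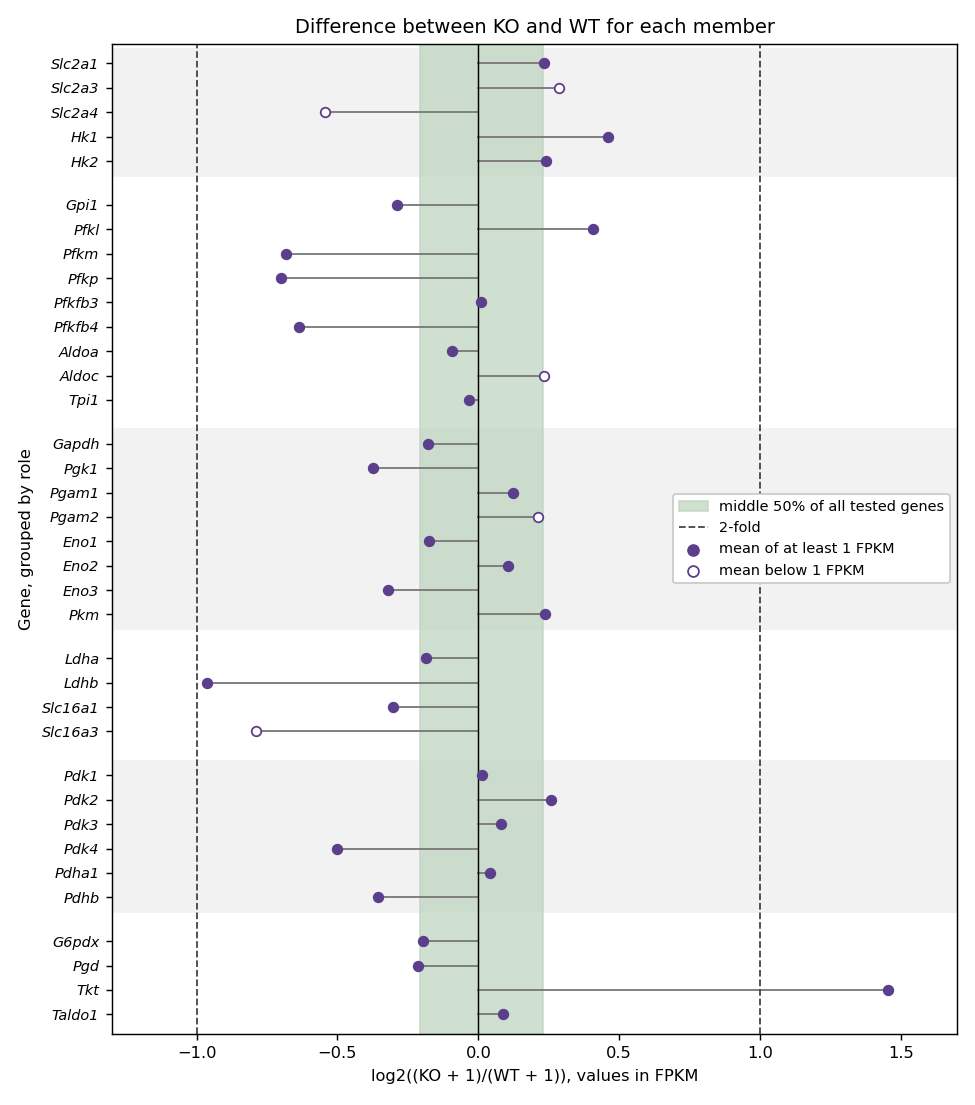
Log2 fold change of each of the 36 genes, log2((KO + 1)/(WT + 1)) with values in FPKM, grouped by role. Filled points are the genes tested, the band is the middle 50% of all genes tested and the dashed lines mark 2-fold, which Tkt at 1.46 passed and Ldhb at -0.96 did not.

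The 3 tested genes of substrate entry had higher values in KO, without passing 2-fold. Slc2a1, the main glucose transporter of dividing cells, was at 47.5 FPKM in WT and 56.0 FPKM in KO. Hk1 and Hk2, hexokinases that trap glucose as its phosphate, were at 49.6 and 68.7 FPKM and at 10.7 and 12.8 FPKM. The log2 fold changes were 0.23 for Slc2a1, 0.46 for Hk1 and 0.24 for Hk2, and the neighbours of Hk1 had a median of 0.19. Together the hexokinases summed to 60.3 and 81.5 FPKM, 1.35 times as much in KO, with Hk1 at 82.3% and 84.3% of the sum. The tissue-restricted transporters were below 1 FPKM in both libraries: Slc2a3, known from neurons, was listed at 0 in WT and at 0.220 FPKM in KO, about 21 fragments. Slc2a4, the insulin-responsive transporter of muscle and fat, was at 0.458 FPKM in WT, about 32 fragments, and listed at 0 in KO.

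In upper glycolysis, the enzymes of high level were close between the libraries and the isoforms of phosphofructokinase went in different directions. Gpi1, the glucose phosphate isomerase, was at 166 FPKM in WT and 136 FPKM in KO. Aldoa, the aldolase of muscle and most dividing cells, was at 746 and 699 FPKM, and Tpi1, the triose phosphate isomerase, at 369 and 360.1 FPKM. The log2 fold changes were -0.29 for Gpi1, -0.09 for Aldoa and -0.03 for Tpi1, all far inside 2-fold. Aldoc, the aldolase of brain, was below the limit of 1 FPKM with 0.257 and 0.478 FPKM.

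Phosphofructokinase catalyses the committed step of glycolysis as a tetramer of liver, muscle and platelet subunits. Pfkl, the liver type, was at 28.3 FPKM in WT and 37.9 FPKM in KO, a log2 fold change of 0.41. Pfkm, the muscle type, was at 31.6 and 19.3 FPKM (-0.68), and Pfkp, the platelet type, at 20.8 and 12.4 FPKM (-0.70). The order therefore differed: Pfkm had the highest level of the family in WT and Pfkl the highest in KO. As shares of the summed FPKM of the family, Pfkl held 35.1% in WT and 54.4% in KO, Pfkm 39.2% and 27.7%, and Pfkp 25.8% and 17.8%. The sum itself was 80.6 FPKM in WT and 69.5 FPKM in KO.

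The medians of the surrounding genes had the sign of Pfkl and of Pfkm, but not that of Pfkp. The 134 neighbours of Pfkl on chromosome 10 had a median log2 fold change of 0.39, which leaves 0.02 for Pfkl. For Pfkm on chromosome 15 the 96 neighbours were at -0.39, which leaves -0.29. For Pfkp on chromosome 13 they were at 0.22, and Pfkp lay 0.92 below them, but only 14 genes gave this median. What part position has in the isoform shares was not tested.

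The bifunctional enzymes that set the level of the phosphofructokinase activator had low values. Pfkfb3, whose kinase activity dominates, was at 1.64 FPKM in WT and 1.66 FPKM in KO. Pfkfb4 was at 5.76 and 3.35 FPKM, a log2 fold change of -0.64 with neighbours at -0.08. Pfkfb4 remained the larger of the pair, with 77.8% of their sum in WT and 66.8% in KO. The related genes of the wider list, Pfkfb1 and Pfkfb2, had values of 1.38 and 1.83 FPKM and of 4.61 and 7.68 FPKM.

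**Figure D3:**
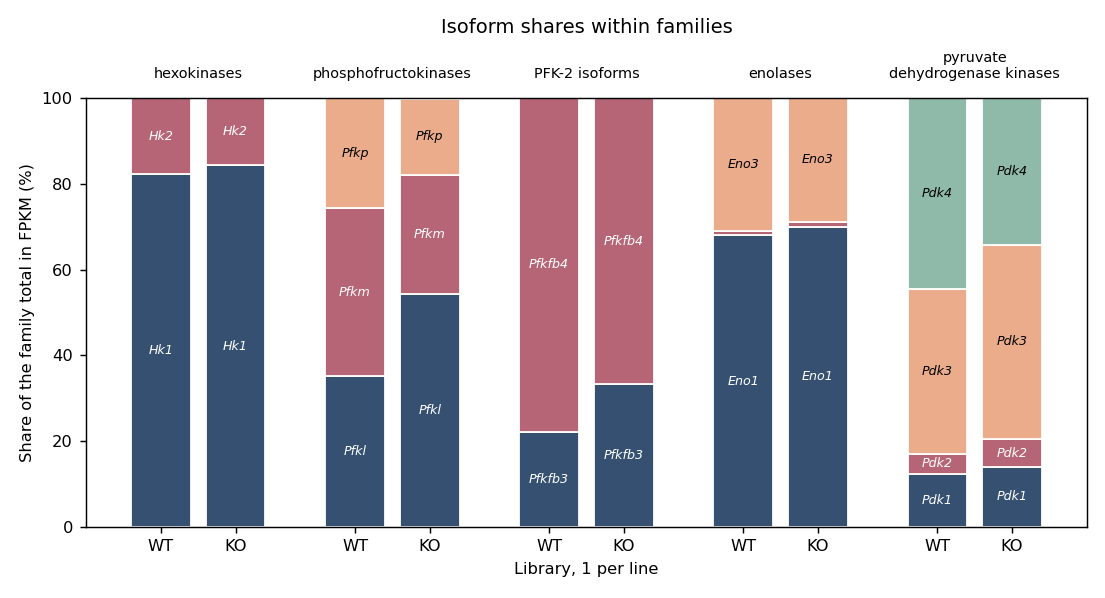
Share of each isoform in the summed FPKM of its gene family, in percent, for the WT and the KO library. Phosphofructokinases show the largest difference, with Pfkl at 35.1% in WT and 54.4% in KO, while hexokinases and enolases differ by about 2 percentage points.

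Lower glycolysis held the highest levels of the pathway, and none of its genes passed 2-fold. Gapdh, the glyceraldehyde phosphate dehydrogenase, was at 1998 FPKM in WT and 1763 FPKM in KO. Pkm, the pyruvate kinase of muscle and dividing cells, was at 1774 and 2089 FPKM. Gapdh thus led the pathway in WT and Pkm led it in KO, with a ratio of Pkm to Gapdh of 0.888 and 1.18. The log2 fold change of Pkm, 0.24, was below the median of 0.32 of its neighbours on chromosome 9, so after subtraction it stood at -0.08. The splice forms of Pkm cannot be told apart in values per gene.

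The remaining enzymes of this stretch lay below these levels in both libraries. Pgk1, the phosphoglycerate kinase, was at 547 FPKM in WT and 422 FPKM in KO, with -0.37 the lowest log2 fold change among the 13 genes that averaged 100 FPKM or more. Pgam1, the phosphoglycerate mutase of most tissues, was at 155 and 169 FPKM, and Pgam2, its muscle form, at 0.134 and 0.312 FPKM, about 3.1 and 6.4 fragments. Among these 13 genes the log2 fold changes ran from -0.37 to 0.24 and 0 passed 2-fold. Of all 899 genes of that level, 46 passed it, or 5.12%, so 0 of 13 does not set these genes apart. The lower and upper quartiles of the log2 fold changes of the 899 genes were -0.15 and 0.21. Of the 13 genes, only Aldoa, Tpi1, Pgam1, Pdha1 and Taldo1 lay between these quartiles.

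Eno1, the enolase of most tissues, was at 854 FPKM in WT and 757 FPKM in KO. Eno3, the muscle enolase, was at 390 and 312 FPKM, and Eno2, the neuronal one, at 11.6 and 12.6 FPKM. Eno1 held 68.0% and 70.0% of their sum and Eno3 31.1% and 28.9%, so the muscle form made up a large share in both libraries. Eno1 has a near-identical copy, Eno1b, that can take part of its reads. Both together came to 1052 FPKM in WT and 956 FPKM in KO, a log2 fold change of -0.14 beside -0.17 for Eno1 alone.

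All 3 tested genes of lactate formation and transport had lower values in KO, none past 2-fold. Ldha, the lactate dehydrogenase subunit that favours lactate formation, was at 840.1 FPKM in WT and 738 FPKM in KO, and Slc16a1, a proton-coupled lactate carrier, at 61.5 and 49.7 FPKM. Ldhb, the subunit of heart and oxidative muscle, was at 5.21 FPKM in WT and 2.19 FPKM in KO. The KO value of Ldhb was 0.420 of the WT value, on about 210 and 79 fragments, and only the added 1 keeps its log2 fold change, -0.96, inside 2-fold. Ldhb is encoded at chr6:142435672-142454586 on the minus strand of GRCm39, where its neighbours had a median of -0.04. The ratio of Ldha to Ldhb was 161 in WT and 337 in KO. Slc16a3, a lactate exporter of glycolytic muscle, was at 0.829 and 0.059 FPKM, about 110 and 6.6 fragments, and its mean was under the limit of 1 FPKM. Bsg, the chaperone that carries these transporters to the membrane, was at 376 and 560 FPKM, a log2 fold change of 0.57 with neighbours at 0.39.

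Of the pyruvate dehydrogenase genes, Pdha1 was near its WT value and Pdhb was lower in KO inside 2-fold. Among the kinases Pdk4 differed most. Pdha1, the catalytic alpha subunit, was at 103 FPKM in WT and 106 FPKM in KO, and Pdhb, the beta subunit, at 92.1 and 71.9 FPKM. Their log2 fold changes were 0.04 and -0.35. Pdk4, the kinase induced by fasting and fatty acids, was at 19.8 and 13.7 FPKM, a log2 fold change of -0.50. The neighbours of Pdk4, only 19 genes, had a median of 0.26, so it lay 0.76 below them. Pdk3 was at 17.2 and 18.2 FPKM, Pdk1, a target of the hypoxia-inducible factor, at 5.54 and 5.61 FPKM, and Pdk2 at 2.04 and 2.63 FPKM. Pdk4 led the kinases in WT with 44.4% of their sum beside 38.6% for Pdk3, and Pdk3 led in KO with 45.4% beside 34.1%. The kinases summed to 44.6 FPKM in WT and 40.2 FPKM in KO.

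Of 5 genes listed as muscle-enriched isoforms (Slc2a4, Pfkm, Pgam2, Eno3 and Ldhb), 3 were tested and all 3 had lower values in KO. Their log2 fold changes were -0.68 for Pfkm, -0.32 for Eno3 and -0.96 for Ldhb, with 0 past 2-fold. Aldoa and Pkm, described above as enzymes of muscle and dividing cells, are not in this list and stood at -0.09 and 0.24. The count of lower genes thus depends on the choice of list. Of all 31 tested genes of the pathway, 17 were lower. Ldhb, the subunit of heart and oxidative muscle, had the lowest log2 fold change of the 31. Below the limit of 1 FPKM, Slc2a4 was lower in KO (0.458 and 0 FPKM) and Pgam2 higher (0.134 and 0.312 FPKM). The sum over the 5 genes was 428 FPKM in WT and 334 FPKM in KO, and that of the myoblast markers 199 and 25.8 FPKM. Whether both differences are linked was not tested.

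Position along the chromosomes was checked for all 31 tested genes. The medians of their neighbours ran from -0.39 to 0.39 and rested on 7 genes (for Pdhb) to 134 genes (for Pfkl). After subtraction, Tkt was again the 1 gene past 2-fold and 0 were past 2-fold lower, 5 genes lay more than 0.5 from 0, the median was -0.09, and Pkm and Tpi1 changed sign.

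**Figure D4:**
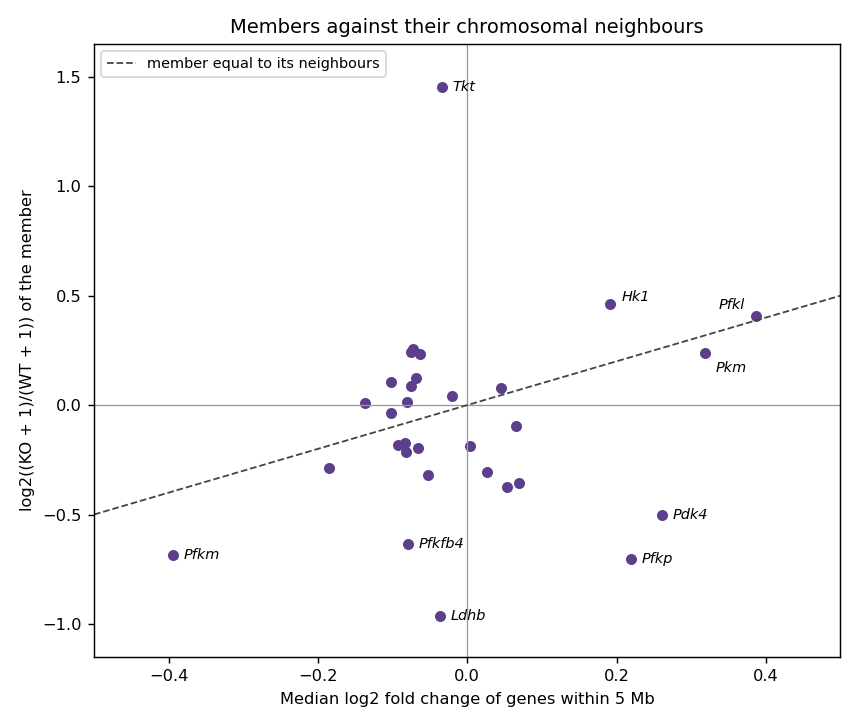
Log2 fold change of each tested gene against the median log2 fold change of the tested genes within 5 Mb on either side, with the diagonal marking equal values. Pfkl lies on the diagonal (0.41 and 0.39), whereas Tkt (1.46 and -0.03) and Ldhb (-0.96 and -0.04) lie far from it.

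Outside the 36 genes, 4 lists of glucose transporters and hexokinases, glycolytic and gluconeogenic enzymes, lactate and pyruvate genes and pentose phosphate genes held 50 more genes. Of these, 29 were tested, with a median log2 fold change of 0.20, and 2 passed 2-fold as higher and 0 as lower, beside 2.84% and 3.43% of all genes tested. The genes past 2-fold were Slc2a6, a lysosomal hexose transporter, at 1.66 FPKM in WT and 6.0 FPKM in KO (1.40), and Pcx, the mitochondrial pyruvate carboxylase that feeds oxaloacetate to the tricarboxylic acid cycle, at 9.84 and 28.3 FPKM (1.44). Their neighbours had medians of -0.09 and -0.09. The mitochondrial pyruvate carrier genes Mpc1 and Mpc2 were at 38.7 and 47.0 FPKM and at 40.1 and 46.1 FPKM.

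Tested regulators of the pathway stayed inside 2-fold. Of 17 transcriptional regulators, 13 were tested and 0 passed 2-fold, beside 2.84% of all genes tested that were higher and 3.43% that were lower. A count of 0 in so short a list does not set it apart. Egln1 had the largest change of the tested regulators, with 21.5 FPKM in WT and 36.8 FPKM in KO (0.75). Hif1a, the oxygen-regulated subunit of the hypoxia-inducible factor, was at 77.6 FPKM in WT and 90.1 FPKM in KO, and Myc, which drives many glycolytic genes, at 58.6 and 35.2 FPKM (-0.72). Of 15 hypoxia-responsive genes outside the pathway, 12 were tested and 1 was past 2-fold, Ndrg1, a stress-induced gene, which was lower with 64.4 FPKM in WT and 24.8 FPKM in KO (-1.34), beside 3.43% of all genes tested that were lower by this measure. Of 8 glucose-sensing genes, 7 were tested and 0 passed 2-fold, beside the same shares of all genes, which does not set this short list apart either. Txnip, which rises with glucose-derived metabolites and restrains glucose uptake, was at 12.4 and 19.3 FPKM (0.60).

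**Figure D5:**
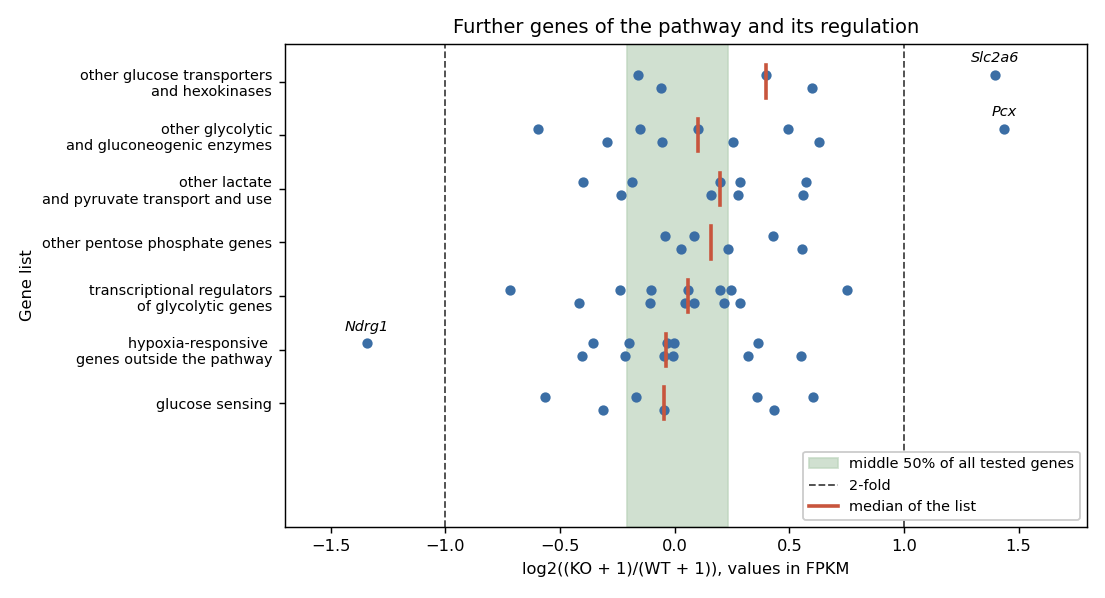
Log2 fold change of the tested genes of 7 further lists around the pathway, 1 point per gene, with the median of each list as a bar, the middle 50% of all genes tested as a band and 2-fold as dashed lines. Slc2a6, Pcx and Ndrg1 are the points beyond 2-fold.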

How the data were processed

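RNA-seq values of 2 C2C12 libraries, 1 WT and 1 GNE KO, were analysed. Per the labels and methods, the authors trimmed reads, aligned them with STAR and quantified them with RSEM 1.3.3. The build is GRCm38 in the processing notes and GRCm39 in the methods, and library preparation is described with 2 different kits. The authors deposited 1 value per gene symbol with no unit, taken here as FPKM because the totals differ and low values step with transcript length; a restricted TPM table could give the same ratios within a library.

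The tables hold 21853 rows; for 24 repeats of a symbol the lower row was dropped (for Aldoa, 3.26 and 1.45 FPKM). Log2((KO + 1)/(WT + 1)) was computed in Python 3.11.15 (pandas 2.3.3, numpy 2.4.6) for means of at least 1 FPKM and tested on simulated data; "tested" in the text means that a gene reached this mean. Positions came from GENCODE on GRCm39, matched for 10171 of 10542 genes. The depth estimate used 59 and 69 low genes, with settings chosen after the values were seen.

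Genes named are the 36 genes, genes of the further lists past 2-fold, and others (such as Bsg, H6pd, Hif1a, Myc and Txnip) chosen after their values were seen. Genes and lists were chosen with earlier results of these data known. Alternatives covered the pseudocount, filter, scaling and neighbour subtraction. With 1 library per line no test was run.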

Additional observations from a re-analysis of the deposited data

How the results depend on the processing

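No paired analysis was possible because each line has 1 library, and for the same reason no replicate could be left out. Alternatives for counts were not run, since the values are not counts. With 0.1 in place of 1 added to each value, 1 of the genes was more than 2-fold lower (Ldhb, -1.21), beside 471 of all genes tested lower and 410 higher, and with 5 added Ldhb was at -0.51. With 5 added, 102 of all genes tested were more than 2-fold higher and 176 lower, and among genes averaging 5 FPKM or more 145 were higher and 221 lower. Without Tkt, chosen after seeing the data, 0 of the remaining 30 passed 2-fold as higher and the median was -0.13. Tkt ran from 1.35 to 1.49 over the alternatives. Of 182 values of single genes under the alternatives, 181 moved by less than the width of the middle 50% of all genes, from -0.21 to 0.23. This is a loose rule, since 25 of the 31 genes lay within 0.5 of 0 to begin with. It passed Pfkl, which went from 0.41 to 0.02 when the neighbours were subtracted, and Pkm and Tpi1, which changed sign there. All 53 isoform shares recomputed with 0.1 or 1 added, or with Eno1b included, kept their sign and moved by less than 5 percentage points. That limit is loose as well, since most shares differed by less than that between the libraries. Scaling by the median ratio divided KO values by 1.0046. Counting error, which the estimated fragments give only roughly, weighs most on Pgam2, with about 3.1 and 6.4 fragments. Slc16a3, Slc2a3, Slc2a4 and Aldoc also rest on few fragments in at least 1 library, and without replicates their differences have no error.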

Other observations

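All 15 genes of the tricarboxylic acid cycle were tested, and the median log2 fold change was -0.05. Of these, 0 passed 2-fold, beside 2.84% of all genes tested that were higher and 3.43% that were lower. Cs, the citrate synthase, was at 221 FPKM in WT and 259 FPKM in KO, and Idh3b, a subunit of isocitrate dehydrogenase, at 86.0 and 61.6 FPKM, the lowest log2 fold change of the list with -0.48. Of 13 glycogen genes 10 were tested and 0 passed 2-fold, beside the same shares of all genes, with a median of 0.04. Gys1, the glycogen synthase of muscle, was at 19.8 and 20.9 FPKM, and Pygm, the muscle glycogen phosphorylase, at 0.198 and 0.120 FPKM. Phkb, a subunit of phosphorylase kinase, was at 17.5 and 9.94 FPKM, with -0.76 as its log2 fold change and -1.47 as the median of its neighbours. Phkg2, another subunit of that kinase, was at 12.8 and 7.53 FPKM (-0.69) with neighbours at 0.07, and Gbe1, the glycogen branching enzyme, at 8.58 and 4.92 FPKM (-0.69).

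Of 10 genes of the shuttles that carry NADH equivalents into mitochondria, 9 were tested, and 1 passed 2-fold as higher and 1 as lower, beside 2.84% and 3.43% of all genes tested. Got2, the mitochondrial aspartate aminotransferase, was at 303 FPKM in WT and 142 FPKM in KO (-1.09), and its neighbours had a median of -0.95. Slc25a13, an aspartate-glutamate carrier, was listed at 0 in WT and at 2.42 FPKM in KO, while its relative Slc25a12 was at 13.6 and 13.8 FPKM. Slc25a13 reached the mean of 1 FPKM only through KO. A gene at 0 in 1 library that reaches this mean always passes 2-fold, so its place in the count was fixed by the filter. Ppargc1a, a coactivator of mitochondrial genes from the list of transcriptional regulators, had a mean under 1 FPKM and was at 0.051 and 1.09 FPKM. Adm and Ak4, hypoxia-responsive genes with means under 1 FPKM, were at 0.819 and 0.639 FPKM in WT and listed at 0 in KO. Of the 12 tested genes of that list, 3 were higher and 9 lower in KO, with a median log2 fold change of -0.04. P4ha1 had the highest, 0.55, with 31.8 FPKM in WT and 47.0 FPKM in KO.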
